A study of Mus musculus with 6 samples.

Results

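The fibrillar collagens are the chains that build the cross-striated collagen fibers of connective tissue, and 7 of their genes were followed here across the cell classes of mouse colon tumors: Col1a1, Col1a2, Col3a1, Col5a1, Col5a2, Col5a3 and Col11a1. The genes were chosen by name among the 19069 genes listed for the 6 plates. Transcripts had been counted in single cells by SORT-seq, in which 1 sorted cell per well of a 384-well plate receives a well barcode and each captured mRNA a molecular barcode. The plates came from AOM/DSS tumors, which arise in the colon after a carcinogen (azoxymethane) and rounds of inflammation (dextran sodium sulfate), and the sort took live cells without EPCAM, CD45 and CD31, the surface markers of epithelial, immune and endothelial cells. Each plate held cells of 1 mouse, so that spread between plates is spread between mice as well as between preparations. Mice 1, 3 and 4 were Zeb1Fib-Ctrl (Col6a1Cre transgene negative, replicates 1 to 3) and mice 2, 5 and 6 were Zeb1Fib-deleted (Col6a1Cre transgene positive, replicates 1 to 3); both genotypes carried the floxed allele Zeb1 fl/fl, and neither the sex nor the age of the mice is given in the labels. The transgene drives recombination from the Col6a1 promoter, so Zeb1, which encodes an E-box binding transcription factor, is removed only in mesenchymal cells in which that promoter was active. The library of mouse 6 carries another flow cell's label than the other 5.

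Fibrillar collagens are made as procollagens of 3 intertwined chains, folded and hydroxylated in the endoplasmic reticulum, trimmed outside the cell and crosslinked by lysyl oxidases. Type I collagen usually joins a pair of Col1a1 chains with a Col1a2 chain, and type III is a trimer of Col3a1 chains alone. Col5a1, Col5a2 and Col5a3 form type V collagen, a minor partner that sits inside type I fibrils, helps to nucleate them and limits their width. Col11a1 belongs to type XI collagen, the cartilage counterpart of type V, and is known from activated fibroblasts of several human carcinomas.

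The genes lie on 6 chromosomes of GRCm38 (GENCODE M21 gene models): Col1a1 on chromosome 11 from 94936224 to 94953042, Col1a2 on chromosome 6 from 4504814 to 4541544, Col5a1 on chromosome 2 from 27886425 to 28039514, Col5a3 on chromosome 9 from 20770050 to 20815067 and Col11a1 on chromosome 3 from 114030540 to 114220718. Col3a1 (chromosome 1, 45311538 to 45349706, plus strand) and Col5a2 (45374321 to 45503282, minus strand) are neighbors whose 3′ ends face each other across 24614 bases. The promoter sequences of the 2 members with the most different patterns are shown, since Col3a1 had the most transcripts of the family and Col5a3 was the member that passed the test as higher in pericyte-like wells. Each run holds the 250 bases before the RefSeq start site (GRCm38.p6), 5′ to 3′ on the gene's strand, and capitals mark TATAAA in Col3a1 and CCAAT in Col5a3.
Col3a1 (chr1:45311288-45311537, plus strand): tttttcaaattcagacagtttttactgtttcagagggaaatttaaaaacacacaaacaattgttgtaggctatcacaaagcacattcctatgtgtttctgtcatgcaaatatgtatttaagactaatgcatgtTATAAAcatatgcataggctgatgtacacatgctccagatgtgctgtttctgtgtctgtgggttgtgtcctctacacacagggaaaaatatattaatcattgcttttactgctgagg
Col5a3 (chr9:20815068-20815317, minus strand): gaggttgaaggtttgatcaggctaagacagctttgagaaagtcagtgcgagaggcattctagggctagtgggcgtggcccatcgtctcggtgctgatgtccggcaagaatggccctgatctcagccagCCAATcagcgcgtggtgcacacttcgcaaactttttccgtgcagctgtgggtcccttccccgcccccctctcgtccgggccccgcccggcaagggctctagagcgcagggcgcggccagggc
The Col3a1 stretch had a GC content of 35.2% and a TATAAA that begins 117 bases before the start, whereas the Col5a3 stretch had 62.8% GC, no TATAAA and a CCAAT that begins 122 bases before it. RefSeq promoters were at hand for 5 of the 7 members (not for Col1a1 and Col5a2). Searched on both strands, CCAAT was present in Col1a2, Col5a3 and Col11a1 and in 33.8% of all 32851 promoters of that length, and TATAAA in Col3a1 alone and in 12.4% of all. The letters CACCTG, an E-box form that ZEB1 is known to bind, were in 0 of these 5 windows and in 17.2% of all promoters.

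Of 2304 wells, 1233 held 100 to 6000 genes and under 10% mitochondrial transcripts. They were assigned by marker genes, none of them a collagen, to 523 fibroblast wells (the fibroblast list includes Pdgfra and Dpt), 79 pericyte-like wells (Rgs5, Notch3 and others), 16 smooth muscle-like wells and 540 non-stromal wells, of which 455 were neutrophil-like, 75 epithelial-like and 10 of other immune cells. Of the remaining wells a few were glial-like (5 in mouse 4 and 1 each in mice 1, 2, 3 and 5) and took no part in the comparisons. The others led in no list clearly enough and were left unassigned. Fibroblast wells divided further into 132 iCAF-like (Pi16, Ptx3 and others), 161 Cxcl13/Grem1, 102 telocyte-like (Wnt5a, Bmp7 and others) and 32 Myoc/Angptl7 wells, and 96 wells without a leading subtype list ("other fibroblast"). The cells are labelled CAFs (cancer-associated fibroblasts), yet neutrophil markers led in 36.9% of the kept wells. Plates held 1575726 to 3699058 transcripts, and levels are given as CPM, a gene's transcripts scaled to 1000000 transcripts of the same wells. Since only the 3′ end of an mRNA is read, and each molecule counts once, levels were compared between genes without dividing by length. Whether 3′ ends of different genes were captured and mapped equally well was not tested. Orders and ratios between genes are therefore those of counted transcripts and need not equal those of the RNA in the cells. Zeb1 itself was at 114, 114 and 98.4 CPM in fibroblast wells of the Zeb1Fib-Ctrl mice and at 58.8, 71.1 and 65.7 CPM in those of the Zeb1Fib-deleted mice. These 3′ tags need not lie in the deleted part, so they do not check the deletion.

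The 7 genes together gave 3.03% ± 0.34 (SD, n = 6 mice) of all transcripts in fibroblast wells. Col3a1 led with 11865 ± 1870 CPM, followed by Col1a2 at 9498 ± 1052 and Col1a1 at 6370 ± 708 CPM (means ± SD, n = 6), an order that held in each of the 6 mice. Type V chains were about an order of magnitude lower, with Col5a2 at 1292 ± 334, Col5a1 at 934 ± 149 and Col5a3 at 291 ± 279 CPM. Col5a2 lay above Col5a1 in every mouse. The SD of Col5a3 is nearly as large as its mean, since it ranged from 84.95 CPM in mouse 5 to 734 CPM in mouse 6. Col11a1 was all but absent: 3 transcripts were counted among the 6558747 of the fibroblast wells and 1 in the pericyte-like wells. It passed the filter on low counts in no comparison, so tests below cover 6 of the 7 genes.

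**Figure D1:**
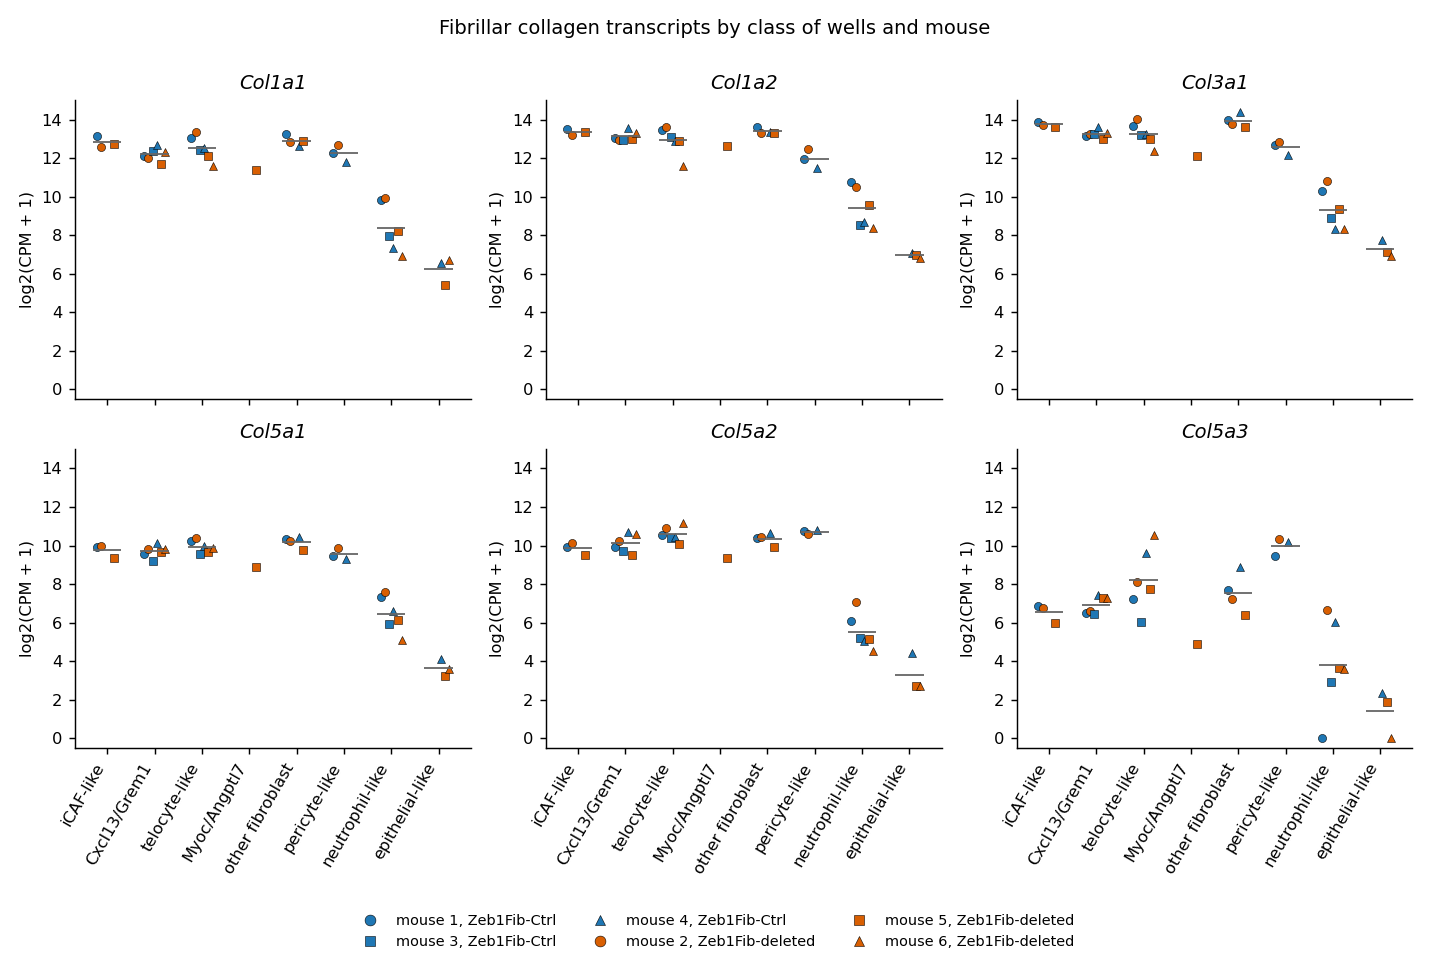
Levels of the 6 tested fibrillar collagens on a log2(CPM + 1) axis, 1 point per mouse and class with at least 5 wells, colored by genotype, with a bar at the mean of the points of a class. Col1a1, Col1a2, Col3a1, Col5a1 and Col5a2 were higher in every fibroblast class than in neutrophil-like and epithelial-like wells. Fibroblast classes still differed, with Col1a1 means from 2644 CPM (Myoc/Angptl7, mouse 5 only) to 7787 CPM (other fibroblast). Col5a3 had its highest mean in pericyte-like wells and scattered widely in telocyte-like wells.

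Across classes, the summed share of the 7 genes (means ± SD over mice with at least 5 wells) was 3.74% ± 0.51 (n = 4) in other fibroblast wells, 3.35% ± 0.38 (n = 3) in iCAF-like, 2.82% ± 0.96 (n = 6) in telocyte-like, 2.59% ± 0.47 (n = 6) in Cxcl13/Grem1 and 1.89% ± 0.43 (n = 3) in pericyte-like wells. Neighbors in that order overlapped in their ranges. Myoc/Angptl7 wells, which reached 5 wells in mouse 5 only, had 1.44%, less than any other fibroblast class of that mouse (2.13% to 3.23%). The iCAF marker list summed to 4510 CPM in these wells, against 2931 CPM in the iCAF-like wells of mouse 5. The 2 classes thus share these markers, and a high level of them did not go with a high collagen share there. Smooth muscle-like wells had 0.597% in mouse 1 and 0.142% in mouse 5. In neutrophil-like wells the share was 0.227% ± 0.165 (n = 6) and in epithelial-like wells 0.0387% ± 0.0085 (n = 3). Fibroblast markers were themselves present in neutrophil-like wells, with 10 to 13 of 13 listed genes detected in a mouse and a summed level of 1029 to 3939 CPM, against 20574 to 47043 CPM in fibroblast wells. The part of transcripts from other cells in these wells was not tested.

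Against non-stromal wells all 6 tested genes were higher in fibroblast wells in edgeR's quasi-likelihood test on counts summed per mouse and class, where 34.2% of all genes tested passed (1414 higher, 1396 lower of 8226). The log2 differences ran from 4.09 ± 0.50 (SE) for Col5a1 to 5.23 ± 0.54 for Col5a2, with Benjamini-Hochberg adjusted p between 9e-06 and 0.00064. Col5a3, the rarest member tested, was higher by 4.30 ± 0.76. Lists of genes that serve collagen rose with the family: 15 of 16 folding and modification genes, 9 of 10 processing, 11 of 12 fibril-associated and 4 of 5 receptor genes were higher and none of these lower. Of 9 uptake and degradation genes 8 were higher and 1 lower, and of 11 TGF-beta and myofibroblast genes 8 were higher and 0 lower.

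Pericytes are mural cells wrapped around capillaries, and they are known to express collagens too. In pericyte-like wells Col3a1 still led in mice 1, 2 and 4, the mice with at least 5 such wells, but Col1a1 stood above Col1a2. Col1a2 stood at 3959, 5672 and 2904 CPM in these mice, against 10457, 9558 and 9276 CPM in their fibroblast wells. Col3a1 stood at 6537, 7204 and 4632 CPM against 12684.5, 12584.5 and 12709 CPM. In neither gene did the classes overlap. Both were lower in pericyte-like wells: Col1a2 was higher in fibroblast wells by 1.42 ± 0.30 (SE, log2, edgeR adjusted p = 0.00085) and Col3a1 by 1.22 ± 0.30 (adjusted p = 0.0031). Col1a1 (4979, 6635 and 3581 against 7310, 6495 and 6477 CPM) did not pass, at 0.60 ± 0.29 (adjusted p = 0.19), nor did Col5a1, at 0.61 ± 0.27 (adjusted p = 0.13), or Col5a2, at -0.21 ± 0.26 (adjusted p = 0.71). Col5a1 and Col5a2 did not overlap between the classes either, so a lack of overlap does not set the called genes apart. The share of all genes without overlap was not computed.

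Col5a3 ran the other way. It reached 711, 1270 and 1174 CPM in pericyte-like wells of mice 1, 2 and 4, against 123, 153 and 550 CPM in fibroblast wells of the same mice. Even the highest fibroblast value lay below the lowest pericyte value. Col5a3 was lower in fibroblast wells by 2.09 ± 0.32 on the log2 scale (edgeR adjusted p = 1.4e-05). The 3 calls in 6 tested members compare with 17.9% of all 8388 genes called. Without mouse 4 the calls of Col1a2 (log2 difference 1.27, adjusted p = 0.13) and Col3a1 (1.07, adjusted p = 0.28) were lost and that of Col5a3 was kept, and with each well given equal weight in limma 0 of 7 passed (400 of all 8928 genes did), at differences of 1.46 for Col1a2, 1.03 for Col3a1 and -2.06 for Col5a3. With at least 3 wells in place of 5, which brings in all 6 mice, 5 of 6 members passed. The 17.9% belongs to the fit of mice 1, 2 and 4, so it is not the share to read that count against.

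In the mice with only 4 pericyte-like wells, Col5a3 stood at 966, 668 and 529 CPM in mice 3, 5 and 6. The values of mice 5 and 6 lay below the lowest of mice 1, 2 and 4 (711 CPM). Fibroblast wells were lower than these pericyte-like wells in mice 3 and 5 but higher in mouse 6 (734 CPM). After thinning every well to 500 barcodes, Col5a3 had a barcode in 41.8% of 79 pericyte-like, 6.10% of 508 fibroblast and 1.18% of 423 neutrophil-like wells, a class that should lack it. Unthinned, the shares were 87.3%, 53.7% and 3.52%, at median depths of 11712, 11929 and 1411 barcodes. For Col1a2 the order was the opposite, with 92.3% of fibroblast, 70.9% of pericyte-like and 26.2% of neutrophil-like wells after thinning. Fibroblast markers summed to 6092 to 9628 CPM in the pericyte-like wells of mice 1, 2 and 4, and pericyte markers to 110 to 201 CPM in fibroblast wells against 7203 to 10857 CPM in pericyte-like wells.

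**Figure D2:**
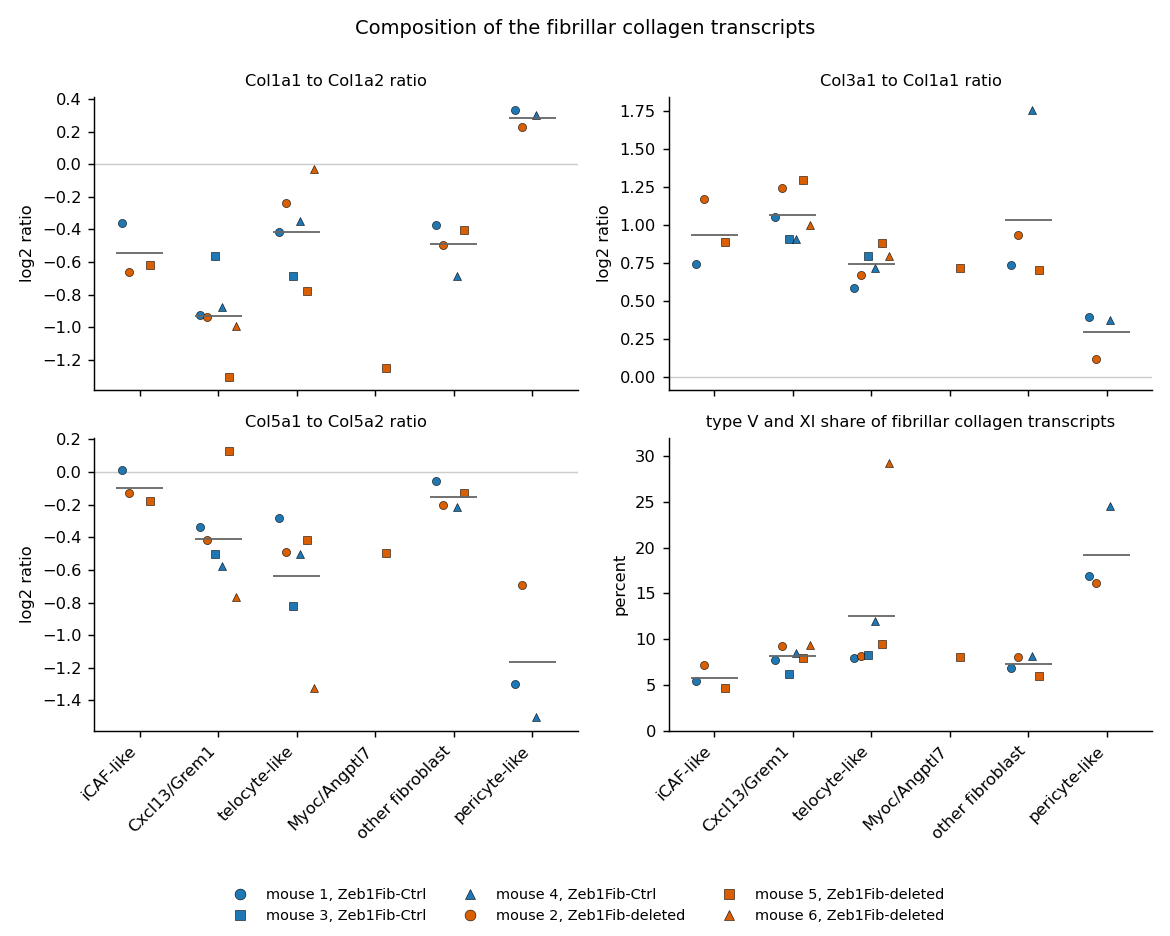
Ratios between members (log2) and the share of type V and XI chains among fibrillar collagen transcripts (percent), 1 point per mouse and class with at least 5 wells, with a bar at the mean. Pericyte-like wells had a Col1a1 to Col1a2 ratio above 1 and the highest mean type V and XI share, and the telocyte-like wells of mouse 6 stood apart from those of the other mice at 29.2%.

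The make-up of the fibrillar collagen transcripts differed accordingly. Col1a1 and Col1a2 encode chains of the same molecule, and their transcript ratio was 0.61 to 0.70 in fibroblast wells of the 6 mice. In pericyte-like wells of mice 1, 2 and 4 it was 1.17 to 1.26, with no overlap. The ratio of Col3a1 to Col1a1 was 1.64 to 2.04 in fibroblast and 1.09 to 1.31 in pericyte-like wells. Chains of types V and XI made up 19.2% ± 4.7 of the family's transcripts in pericyte-like wells (SD, n = 3) and 8.44% ± 2.75 in fibroblast wells (n = 6). Within mice the log2 difference of the Col1a1 to Col1a2 ratio was -0.82 and the type V and XI share differed by -10.9 percentage points (fibroblast minus pericyte-like), each with p = 0.25 in the exact two-sided sign-flip test, the smallest value 3 mice allow. With at least 3 wells and 6 mice the share differed by -11.2 points and the Col5a1 to Col5a2 ratio by 1.495 (both exact p = 0.031, the smallest possible, adjusted p = 0.23 over 45 tests of ratios and shares). The ratio difference ran from 0.31 to 3.97 over the mice (SD 1.27). In the mice with at least 5 wells it was 0.83 and ran from 0.31 to 1.13. The added mice 3, 5 and 6 had 4 pericyte-like wells each, with 26990 transcripts in those of mouse 5, so few counts weigh on the larger mean. The Col1a1 to Col1a2 difference shrank to -0.44 (exact p = 0.125). It was negative in 4 of 6 mice and ran from -0.85 to 0.33, so the added mice did not all share the direction. That of Col3a1 to Col1a1 went from 0.61 to -0.053, was negative in 3 of 6 mice and ran from -1.02 to 0.84.

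Genes that act on collagen differed between the same classes. Among 12 tested genes of fibril-associated proteins, 7 were higher and 1 lower in fibroblast wells. Ogn, a small leucine-rich proteoglycan, was higher by 4.68 and Col14a1, a collagen that coats fibrils, by 3.35. Aspn, of the same leucine-rich family as Ogn, was lower by 2.64 (edgeR log2 difference -2.64). Tnxb (tenascin X) was at 214 to 277 CPM in fibroblast and at 0 to 7.31 CPM in pericyte-like wells. Of 10 procollagen processing and crosslinking genes, 5 were higher and 1 lower. Loxl1 and Lox, which start crosslinking, were higher by 3.05 and 1.52. Pcolce2, an enhancer of propeptide removal, was at 18.5 to 124 CPM in fibroblast wells and was not counted in pericyte-like wells of these mice. Adamts3, a procollagen N-proteinase, was at 16.1 to 29.2 against 0 to 9.47 CPM.

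Of 8 uptake and degradation genes 5 were higher in fibroblast wells, among them Mrc2, a receptor that takes up collagen fragments (3.93), the collagen-cutting protease Ctsk (2.08) and the protease inhibitor Timp2 (1.81). Collagen receptors divided, since Itga11 (13.9 to 39.98 CPM) was found in fibroblast wells only, and Itga10 and Itga1 were lower there (-4.99 and -2.65). In the TGF-beta and myofibroblast list, 2 of 11 were higher (Smad3, 2.92, and Tgfbr2, 2.54) and 5 lower, including Tgfb3 (-2.36) and the contractile gene Tagln (-2.09). Folding and modification genes mostly did not pass: 1 of 16 was called, the lysyl hydroxylase Plod2 (2.72). Col27a1, a fibrillar collagen outside the 7, was higher by 1.57. The median log2 difference was 0.88 for fibril-associated, 0.80 for processing and 0.18 for folding genes, against 0.021 for all genes tested.

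Within fibroblasts, the comparison of Cxcl13/Grem1 with iCAF-like wells gave the clearest difference in type I and III chains. iCAF-like cells carry markers of inflammatory fibroblasts, and 3 mice (1, 2 and 5) held at least 5 wells of both classes. Col1a1 was at 4367, 4061 and 3312 CPM in Cxcl13/Grem1 wells against 9064, 6019 and 6787 CPM in iCAF-like wells. Col3a1 was at 9063, 9614 and 8118 against 15155.5, 13549.8 and 12571 CPM. All Cxcl13/Grem1 values lay below all iCAF-like values for both genes. The same held for Col1a2, given below, so this does not set the called genes apart. The share of all genes with such a separation was not computed. Col1a1 was lower by 0.99 ± 0.18 (SE, log2 difference -0.99, edgeR adjusted p = 0.0029) and Col3a1 by 0.73 ± 0.16 (-0.73, adjusted p = 0.0098). Col1a2, at 8290, 7793 and 8175 against 11624, 9512 and 10420 CPM, showed a smaller difference that missed the threshold, -0.48 ± 0.16 (adjusted p = 0.092).

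The type V genes were nearly level between these subtypes, with log2 differences of -0.20 ± 0.21 for Col5a1, -0.08 ± 0.20 for Col5a2 and -0.03 ± 0.30 for Col5a3 (edgeR adjusted p from 0.71 to 0.98). Of all 7513 genes tested, 7.57% were called, so 2 of 6 members is read against that share. Both calls were lost without mouse 1, which held 57 of the iCAF-like and 58 of the Cxcl13/Grem1 wells (Col1a1 -0.83, adjusted p = 0.28, and Col3a1 -0.59, adjusted p = 0.56), and in limma with wells weighted equally, where 0 of 8553 genes passed at all (1032 at an unadjusted p under 0.05). DESeq2 kept Col1a1 (adjusted p = 0.011) and lost Col3a1 (0.11). The summed share of the family was lower by 1.07 points in Cxcl13/Grem1 wells (exact sign-flip p = 0.25, the smallest for 3 mice).

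Fibril-associated genes moved in both directions in this contrast (2 higher and 3 lower of 12). Postn (periostin) and Col12a1, another fibril-coating collagen, were higher in Cxcl13/Grem1 wells by 1.54 and 1.71, and Thbs2 and Col14a1 were lower (-2.55 and -2.07). Pcolce2 was the 1 of 9 processing genes called (-3.80), and Plod2 the 1 of 16 folding genes (-0.96). Among 7 uptake and degradation genes, the protease Fap (-2.54) and the inhibitor Timp1 (-1.14) were lower and Timp3 higher (2.03). Tgfb3 (-1.69) and Smad7 (-1.32) were the 2 called of 11 TGF-beta genes, 0 of 5 collagen receptors passed, and Col27a1 was higher (1.49).

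Telocytes are long-processed fibroblasts beneath the epithelium and a source of WNT and BMP signals. Telocyte-like against iCAF-like wells, again in mice 1, 2 and 5, gave 0 of 6 members called, while 16.2% of all 6588 genes passed. The member differences ran from -0.37 ± 0.24 for Col3a1 to 0.93 ± 0.32 for Col5a3 (log2 ± SE, edgeR adjusted p = 0.38 and 0.065), with 1 of 6, Col5a3, at an unadjusted p under 0.05 (0.011). DESeq2 and limma called 0 as well. Col5a2 was 0.47 ± 0.24 higher (adjusted p = 0.23). Col5a3 stood at 149, 279 and 217 CPM in the telocyte-like and 115, 109 and 62.8 CPM in the iCAF-like wells, without overlap (the share of all genes without overlap was not computed). It passed with at least 3 wells (5 mice, 1.23, adjusted p = 0.033). Col3a1 passed only without mouse 2, at -0.66 (adjusted p = 0.032). Chains of types V and XI made up 7.96%, 8.20% and 9.50% of the family's transcripts in telocyte-like wells of mice 1, 2 and 5 against 5.46%, 7.17% and 4.60% in iCAF-like wells, and the ratio of Col5a1 to Col5a2 was 0.71 to 0.82 against 0.89 to 1.01. Neither overlapped, and each differed in the same direction in 3 of 3 mice (2.81 points and -0.30 on the log2 scale, exact sign-flip p = 0.25, the smallest for 3 mice). With at least 3 wells the direction held in 5 of 5 mice (3.49 points and -0.40, exact p = 0.0625, the smallest possible, adjusted p = 0.23). The summed share (0.0036 points) and the ratio of Col1a1 to Col1a2 (0.067) were near 0 and differed in sign between mice.

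Other collagen genes did separate them. Tnc (tenascin C) and Col12a1 were higher in telocyte-like wells by 4.14 and 3.63, and Col14a1 and Tnxb lower (-4.39 and -3.70), among 3 higher and 4 lower of 12 fibril-associated genes. Of 10 processing genes 2 were higher and 3 lower, with Loxl4 at 1.79, Adamts2 at -1.53 and Loxl1 at -1.49, and Pcolce2 fell to 0 to 10.8 CPM from 196 to 423 CPM. Mmp13, a collagenase, was at 27.2 to 949 CPM against 0 to 2.17 CPM, Fap at 1.70 to 10.8 against 34.8 to 75.8 CPM, Ctsk was lower (-1.48) and Timp2 as well (-1.14). The collagen-binding integrin chain Itga1 was higher (4.80), as was its partner Itgb1 (0.88), and the receptor Ddr2 lower (-0.94). Acta2 and Tagln, genes of contractile cells, were higher by 3.77 and 2.78, and Tgfb3 was lower (-2.64). The prolyl hydroxylase subunit P4ha3 was the 1 of 16 folding genes called (-3.51), and Col27a1 was higher (1.77).

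**Figure D3:**
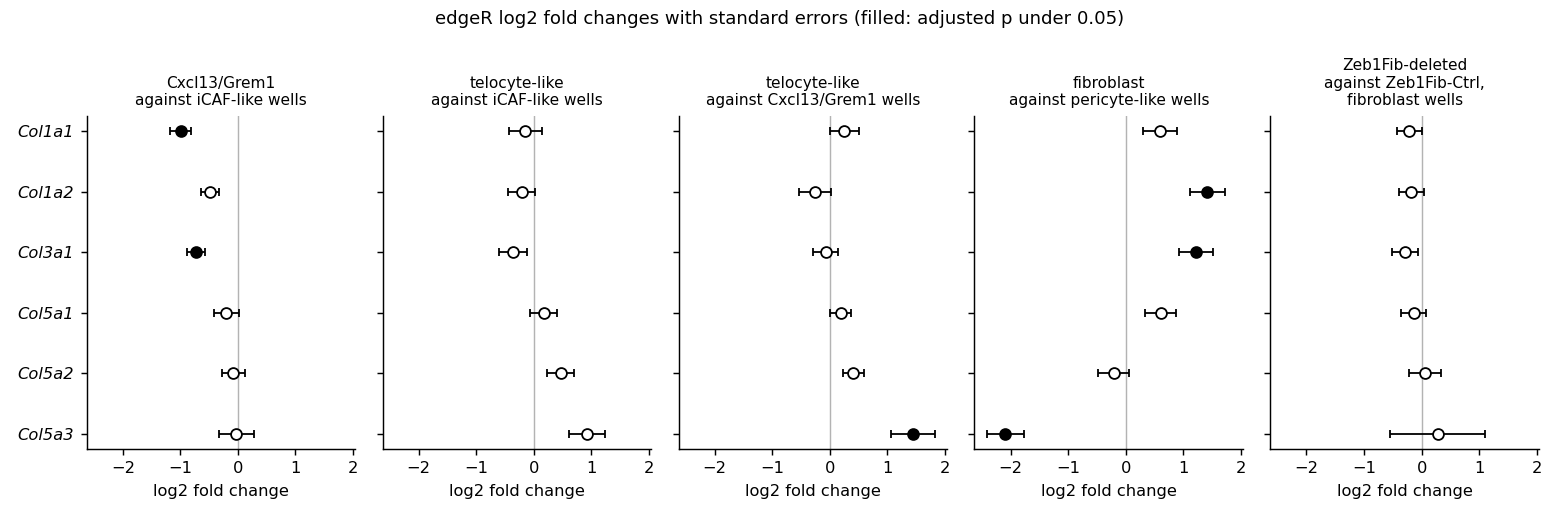
Log2 fold changes from edgeR's quasi-likelihood test with standard errors for 6 fibrillar collagens in 4 contrasts between classes and in the genotype contrast, filled where the adjusted p was under 0.05. Col1a1 and Col3a1 were called in Cxcl13/Grem1 against iCAF-like wells, Col5a3 in telocyte-like against Cxcl13/Grem1 wells, Col1a2, Col3a1 and Col5a3 in fibroblast against pericyte-like wells, and 0 of 6 in the others shown.

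Telocyte-like and Cxcl13/Grem1 wells could be compared in all 6 mice, and here Col5a3 was called. In mice 1 to 6 it stood at 149, 279, 63.8, 777, 217 and 1511 CPM in telocyte-like wells against 89.4, 94.4, 86.2, 172, 153 and 152 CPM in Cxcl13/Grem1 wells. It was higher in 5 of 6 mice and lower in mouse 3. The difference was 1.45 ± 0.38 (SE, log2, edgeR adjusted p = 0.025). With 1 of 6 members called, the count was near the share of all genes called, 12.7% of 3625. Col5a2 (0.41 ± 0.18, adjusted p = 0.17), Col1a1 (0.25 ± 0.26), Col5a1 (0.19 ± 0.18), Col3a1 (-0.07 ± 0.22) and Col1a2 (-0.25 ± 0.28) did not pass. The call was lost without mouse 2 (1.39, adjusted p = 0.092), without mouse 4 (1.28, adjusted p = 0.10), with a looser gate (1.39, adjusted p = 0.052) and in limma (1.38, adjusted p = 0.27).

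The Col5a3 level of telocyte-like wells rested on few wells in the mice with 5 or 6 of them. A barcode was found in 11 of 21, 26 of 32, 2 of 5, 18 of 32, 4 of 6 and 2 of 6 of these wells in mice 1 to 6, or 61.8% of all 102, against 62.7% of Cxcl13/Grem1 wells. After thinning to 500 barcodes the shares were 11.9% and 3.77%. The highest well of a mouse held 37.6%, 15.9%, 75%, 26.9%, 75.04% and 54.9% of them. In mouse 6 the level of 1511 CPM therefore rests on 2 wells. Fibroblast wells other than telocyte-like ones were far more alike, at 119, 110, 115, 238, 71.7 and 97.2 CPM, against 123, 153, 102, 550, 84.95 and 734 CPM when telocyte-like wells were included. Telocyte-like wells made up 12.5%, 20.5%, 29.4%, 62.7%, 5.17% and 40% of fibroblast wells. Pericyte markers summed to 109 CPM in the telocyte-like wells of mouse 6 and to 226 CPM in those of mouse 4, within a range of 109 to 498 CPM over the 6 mice and below the 7203 CPM or more of pericyte-like wells.

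**Figure D4:**
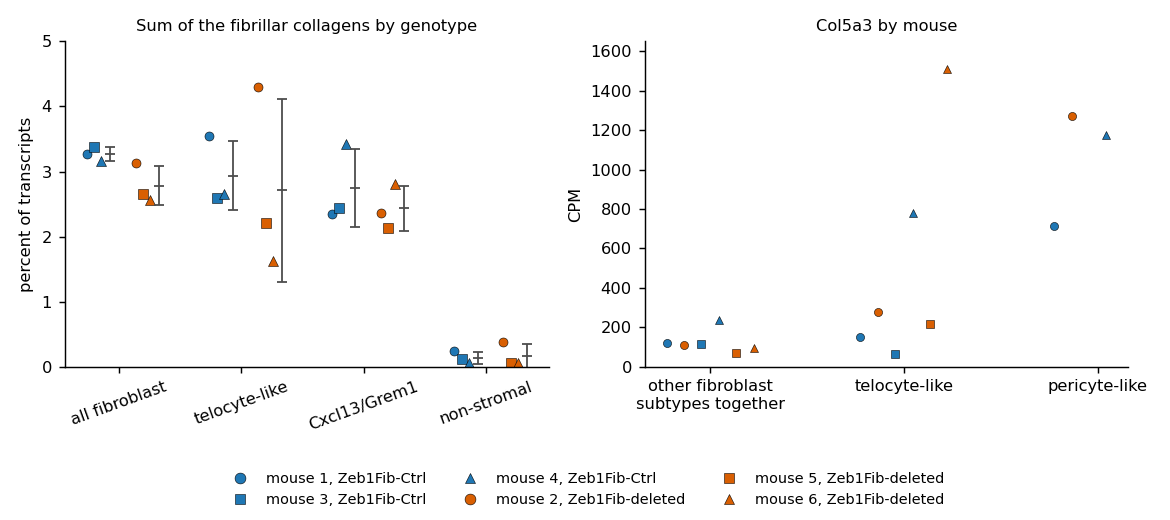
Left, summed share of the 7 fibrillar collagens (percent of transcripts) by genotype in 4 classes of wells, with points for mice and bars for mean ± SD; right, Col5a3 level (CPM) by mouse in fibroblast wells other than telocyte-like, in telocyte-like and in pericyte-like wells with at least 5 wells. Zeb1Fib-deleted mice lay below Zeb1Fib-Ctrl mice in fibroblast wells (2.78% against 3.27%), with overlap in telocyte-like and in Cxcl13/Grem1 wells, and Col5a3 was spread from 63.8 to 1511 CPM in telocyte-like wells.

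Among type I and III chains the ratios moved slightly between these subtypes. The ratio of Col3a1 to Col1a1 was 1.498 to 1.84 in telocyte-like and 1.87 to 2.45 in Cxcl13/Grem1 wells, lower in the telocyte-like wells of 6 of 6 mice (log2 difference -0.33, exact sign-flip p = 0.031, the smallest possible, adjusted p = 0.23). With the looser gate the difference was -0.12 (exact p = 0.41). The ratio of Col1a1 to Col1a2 was 0.58 to 0.98 against 0.41 to 0.68 (log2 difference 0.52, 5 of 6 mice, exact p = 0.0625). Neither passed after adjustment over the 45 tests.

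Of fibril-associated genes, Tnc (4.93) and Col12a1 (1.83) were higher and Tnxb (-3.21) and Col14a1 (-3.10) lower in telocyte-like than in Cxcl13/Grem1 wells (2 higher and 3 lower of 12). Adamts2 (-2.22) and Loxl1 (-1.72) were the 2 of 7 processing genes called. Mmp13 was higher in 6 of 6 mice (6.85) but spread from 15.96 to 12051.5 CPM, and Timp3 (-1.65) and Ctsk (-1.52) were lower. Itga1 (2.59), Itga11 (2.24) and Ddr2 (-1.66) were 3 of 4 collagen receptors tested. Tagln (2.36) and Acta2 (2.15) were higher, Tgfbr1 lower (-1.01), and 0 of 14 folding genes passed.

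Between genotypes no member was called. In fibroblast wells Col3a1 stood at 12684.5, 13999 and 12709 CPM in the Zeb1Fib-Ctrl mice and at 12584.5, 10243 and 8968 CPM in the Zeb1Fib-deleted mice, so that each deleted mouse lay below each control mouse. Col3a1 was the 1 of 6 members with that pattern, which 3.38% of all 8494 genes tested showed. Its difference of -0.28 ± 0.23 (SE, log2) did not pass, nor did those of Col1a1 (-0.21 ± 0.21), Col1a2 (-0.18 ± 0.22), Col5a1 (-0.14 ± 0.22), Col5a2 (0.06 ± 0.28) and Col5a3 (0.28 ± 0.83), with edgeR adjusted p at 0.99996 throughout. In such a sum, which mixes subtypes in shares that differ between mice, fewer cells of a subtype and less RNA per cell cannot be told apart. Without mouse 6, the library from another flow cell, the differences were -0.14 for Col1a1, -0.07 for Col1a2, -0.15 for Col3a1, -0.12 for Col5a1 and -0.17 for Col5a2, and -1.04 for Col5a3 in place of 0.28. Called genes were 0% of those tested: edgeR called 0 of 8494 (130 at an unadjusted p under 0.05), limma 0 and DESeq2 1.

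The summed share was 3.27% ± 0.11 in Zeb1Fib-Ctrl and 2.78% ± 0.30 in Zeb1Fib-deleted fibroblast wells (SD, n = 3 each, exact two-sided permutation p = 0.10, the smallest this design allows). Without mouse 6 the difference was -0.38 points in place of -0.49. In telocyte-like wells the deleted mice ran from 1.62% to 4.30% and enclosed the controls (2.60% to 3.55%). In Cxcl13/Grem1 wells the ranges of 2.13% to 2.81% and 2.35% to 3.43% overlapped. In the subtypes that fewer mice held with at least 5 wells the ranges did not overlap: iCAF-like wells had 3.79% in the control mouse 1 and 3.13% and 3.12% in the deleted mice 2 and 5, and other fibroblast wells had 4.18% in both control mice 1 and 4 and 3.38% and 3.23% in the deleted mice 2 and 5. These differences were not tested. The iCAF-like order rests on 1 control against 2 deleted mice and the other on 2 against 2. With so few mice ranges often separate by order alone, and the share of all genes that do so was not computed. Among mice with under 5 wells, the iCAF-like wells of mice 3 and 4 (4.22% and 4.52%, 3 wells each) and of mouse 6 (2.39%, 2 wells) kept that order, and the other fibroblast wells of mouse 6 (5.09%, 2 wells) did not. Testing telocyte-like wells alone, Cxcl13/Grem1 wells alone, or fibroblast with pericyte-like wells also called 0 of 6 members, and 0% of all genes (0 of 4020, 2300 and 8749, with 114, 37 and 115 at an unadjusted p under 0.05; DESeq2 called 3, 0 and 1). None of the pathway genes was called either, out of 16 folding, 11 processing, 12 fibril-associated, 8 uptake, 5 receptor and 11 TGF-beta genes tested in fibroblast wells.

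Tested directly, the difference between telocyte-like and Cxcl13/Grem1 wells in the summed level of the family was not distinguishable between genotypes (-0.064 on the log2 scale, 3 against 3 mice, exact permutation p = 0.90), and for single members p was 0.50 or more. The same difference against iCAF-like wells rests on 2 deleted mice and 1 control mouse and cannot reach a p below 0.33 (sum 0.074, exact p = 1). Ratios among members did not differ between genotypes beyond their spread: the log2 difference was -0.029 for Col1a1 to Col1a2 (exact p = 0.70), -0.089 for Col3a1 to Col1a1 (0.40) and -0.16 for Col5a1 to Col5a2 (0.80).

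Across single fibroblast wells with at least 3000 transcripts, the type I and III genes varied together in each mouse. Pearson correlations of log2 levels were 0.57 to 0.86 for Col1a1 with Col1a2 and 0.72 to 0.84 for Col1a1 with Col3a1. Col5a3 did not share this pattern throughout. Its correlation with Col1a2 was 0.37, 0.40 and 0.17 in mice 1, 2 and 3, -0.50 in mouse 4, -0.076 in mouse 5 and -0.74 in mouse 6. Wells of a mouse share a plate and library, and these values describe the plates and are not tests.

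Over 34 sums of class and mouse, the genes whose log2(CPM + 1) was most alike to the summed family, out of 3558 at a mean of at least 50 CPM, were Lgals1 (Pearson r 0.97), Col6a1, Bgn, Sparc, Sod3, Col6a2, Serpinh1, Fbn1, Rcn3 and Igfbp7 (0.91). Col6a1 is the gene whose promoter drives the Cre of the mice studied. Within the 20 sums of fibroblast subtypes they were Sparc (0.82), Hp, Slco3a1, Timp1, Fbn1, Ccdc3, Eef1g, Il13ra1, Gbf1 and Krtcap2 (0.67), so that Sparc and Fbn1 stood in both lists. Among members, likeness to the sum over fibroblast subtypes was 0.98 for Col3a1, 0.94 for Col1a1, 0.85 for Col1a2 and 0.76 for Col5a1, but 0.32 for Col5a2 and 0.10 for Col5a3. The sum is made mostly of the first 3 genes, and sums of the same mouse share a library.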

How the data were processed

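SORT-seq libraries (CEL-Seq2 chemistry) of 6 plates were used. Per the labels and methods, the authors aligned reads to the GRCm38 transcriptome with BWA; the submitters' notes also name Cell Ranger 2.1.1. The authors deposited 2 tables per plate: whole barcode counts, and estimated counts of transcripts, which correct barcodes for chance sharing and were used here (rounded after summing). Spike-ins were left out, and a gene not listed for a plate was taken as 0.

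Wells with 100 to 6000 genes and under 10% mitochondrial transcripts were kept. Each well took the class of the marker list with the highest mean log2 level, with thresholds (score of 1.0 for a lineage, 0.5 for a subtype, margin of 0.25) set after marker values were seen; no collagen was a marker. Well classes were rebuilt here and doublets were not called. Sums per plate and class (at least 5 wells) were normalized by TMM, filtered with filterByExpr and compared by the quasi-likelihood test of edgeR 4.0.16 in R 4.3.3, and p was adjusted over all genes (Benjamini-Hochberg, threshold 0.05). Contrasts between classes had the plate as a block, since both classes came from the same mouse. Genotypes were compared as 3 mice against 3. Marker genes of the gates were left out of counts of called genes and of the lists. Ratios and shares were compared by exact permutation tests. Alternatives included DESeq2 1.42.0, limma 3.58.1 (log2 of CPM + 1), the barcode counts, other gates and each mouse left out in turn. Chosen after seeing the data were the genotype tests within telocyte-like and Cxcl13/Grem1 wells, ratio and share tests for contrasts other than telocyte-like against iCAF-like wells and genotype, ratios with at least 3 wells, the genotype test of telocyte-like minus Cxcl13/Grem1 wells, and thinning. The edgeR script was tested on simulated data.

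The members and gene lists were chosen with earlier results of these data known. Named were the 7 members, at most 4 called genes per list and contrast by absolute fold change, and the 10 genes most alike to the summed members. A gene that this rule names is not reported here. Where a class held 3 or fewer counts of a named gene, CPM ranges are given in place of a fold change. Intervals are not given for sums. SD reflects the spread between mice, preparation included. SE is the absolute edgeR log2 difference divided by the square root of its F statistic. It comes from the model, whose variability is partly pooled over genes, and is not a plain spread between mice.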

Additional observations from a re-analysis of the deposited data

Results flagged for a closer look

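Wells with 10% or more mitochondrial transcripts took no part in the comparisons, yet they held fibrillar collagen transcripts on every plate, which drew attention to them as data outside the main measurement. The 7 genes made up 2.08%, 2.65%, 1.003%, 1.27%, 0.434% and 0.842% of transcripts in these wells of mice 1 to 6, from 71 to 260 wells a plate. In the kept wells of the same mice, all classes together, the shares were 2.97%, 2.82%, 1.4995%, 1.96%, 1.70% and 1.04%, higher on each plate. The cell classes of the left-out wells were not compared here.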

How the results depend on the processing

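The cause of the changes below was not tested. Across alternatives, 203 values that answer a comparison stayed, 17 moved and 12 reversed. A value stayed if it kept its direction and side of the threshold, and a count of called members if it stayed within 1.5 times. Exact tests between genotypes (smallest p 0.10 for 3 against 3 mice) could not pass the threshold. The same held for exact sign-flip tests within 3 mice (smallest p 0.25). For these only a turn in direction could show, so their side of the threshold says nothing about stability. Among single genes and added contrasts, 671 stayed, 23 lost and 20 gained the threshold and 48 reversed, mostly differences near 0. The 6 members kept their calls against non-stromal wells under every alternative run, and 0 members were called between genotypes in fibroblast wells, alone or with pericyte-like wells, under every alternative run. Weighting wells equally in limma, which has no TMM scaling, moved the median log2 difference of all genes to 0.92 for fibroblast against non-stromal wells, 0.18 for telocyte-like and 0.13 for Cxcl13/Grem1 against iCAF-like wells and 0.12 for telocyte-like against Cxcl13/Grem1 wells. Mice 3 and 6, with 17 and 15 fibroblast wells, gave the shallowest sums.

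Members called went from 3 to 5 for fibroblast against pericyte-like wells with at least 3 wells, with only genes named mt- counted as mitochondrial, and with up to 30% mitochondrial transcripts, and to 0 in limma. For Cxcl13/Grem1 against iCAF-like wells they went from 2 to 1 in DESeq2, 0 in limma and 3 with the stricter gate, where Col1a2 passed too (-0.68), for telocyte-like against Cxcl13/Grem1 wells from 1 to 0 with the looser gate and in limma, and for telocyte-like against iCAF-like wells from 0 to 1 with up to 30% mitochondrial transcripts, without wells with Ptprc or Epcam, with the looser gate and with at least 3 wells. Leaving out 1 mouse in turn gave 1 to 3, 0 to 2, 0 to 1 and 0 to 1 for these 4 contrasts. These counts are not set against the share of all genes called under each setting, which can change with it.

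The fibrillar collagen share of transcripts, telocyte-like against iCAF-like wells, differed by 0.0036 points and became -0.0072 in barcode counts, -0.046 with wells weighted equally, -0.38 with up to 30% mitochondrial transcripts, -0.11 with the stricter and -0.60 with the looser gate, and -0.69 with at least 3 wells. The genotype difference of telocyte-like minus Cxcl13/Grem1 wells, -0.064, became 0.10 with up to 30% mitochondrial transcripts and 0.60 with the stricter gate. The log2 ratio of Col3a1 to Col1a1 in fibroblast against pericyte-like wells was -0.053 with at least 3 wells.

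For telocyte-like against iCAF-like wells, Col1a1 became 0.18 and Col1a2 0.0021 with at least 10 wells, and Col5a1 -0.050 with the looser gate and -0.062 with at least 3 wells. For Cxcl13/Grem1 against iCAF-like wells, Col5a2 became 0.069 with up to 30% mitochondrial transcripts, 0.0028 with the looser gate and 0.11 in limma, and Col5a3 0.062 in DESeq2, 0.035 with mt- genes only, 0.18 with up to 30% mitochondrial transcripts, 0.11 with the looser gate, 0.053 in limma and 0.20 with at least 3 wells. For telocyte-like against Cxcl13/Grem1 wells, Col1a1 became -0.13 with the looser gate, Col1a2 0.073 with the stricter gate and 0.061 with at least 10 wells, Col3a1 0.21 with the stricter gate, 0.054 in limma and 0.23 with at least 10 wells, and Col5a1 -0.012 with mt- genes only and -0.011 with up to 30%. Col5a2 in fibroblast against pericyte-like wells became 0.16 with mt- genes only, 0.17 with up to 30% and 0.16 with at least 3 wells. Between genotypes Col5a2 became -0.12 in limma, and Col5a3 -0.14 with mt- genes only, -0.11 with up to 30% and -0.24 in limma.

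Leaving out 1 mouse gave these ranges where a sign turned. For telocyte-like against iCAF-like wells they were -0.58 to 0.18 for Col1a1, -0.47 to 0.0021 for Col1a2, -0.11 to 0.18 for the log2 ratio of Col1a1 to Col1a2 and -0.58 to 0.46 points for the summed share. For telocyte-like against Cxcl13/Grem1 wells they were -0.45 to 0.0038 for Col1a2 and -0.26 to 0.079 for Col3a1. For Cxcl13/Grem1 against iCAF-like wells they were -0.39 to 0.028 for Col5a1, -0.13 to 0.024 for Col5a2 and -0.41 to 0.43 for Col5a3. Between genotypes they were -0.17 to 0.30 for Col5a2, -1.04 to 1.36 for Col5a3, -0.074 to 0.028 for Col1a1 to Col1a2, -0.32 to 0.073 for Col5a1 to Col5a2 and -0.60 to 3.06 points for the type V and XI share. The genotype difference of subtypes ran from -0.41 to 0.55 for telocyte-like minus iCAF-like and from -0.48 to 0.35 for telocyte-like minus Cxcl13/Grem1 wells.

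Without the plate as a block (no replicate block), Col3a1 in telocyte-like against Cxcl13/Grem1 wells became 0.017 and Col5a3 in Cxcl13/Grem1 against iCAF-like wells 0.0083, and the number of members called did not change in a contrast between classes. No paired analysis was possible because replicate numbers of the 2 genotypes were given in accession order and pair no mice.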
